A study of Mus musculus with 32 samples.

Results

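The lungs of mice that carried a primary mammary tumor were compared with the lungs of tumor-free mice, with both host genotypes in 1 fit. All 20 lungs of the 32 samples in the series were used, namely 12 lungs taken 14 days after implantation and 8 control lungs labelled as baseline. The lungs at 14 days came from 6 *Clic4* knockout (KO) and 6 wildtype (WT) hosts, and the control lungs from 4 KO and 4 WT mice. All were virgin female FVB/N mice, 6 to 8 weeks old when used, and the KO mice lacked *Clic4* in every cell from birth. The tumors were grown from 6DT1 cells, a syngeneic mammary cancer line that carries *Clic4* itself, injected into the mammary fat pad, so the lung held no implanted cells at the start. No mock injection is described for the controls. Tumor, injection and the 14 days that passed therefore cannot be told apart. The other 12 samples are the primary tumors, which serve here only as a reference for the genes of the implanted cells.

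A tumor that grows elsewhere can alter the lung before any metastasis is visible there, and such a lung is called premetastatic. Neutrophils, short-lived white cells that are released from bone marrow under granulocyte colony-stimulating factor, are the cells best known to gather in such lungs. They carry the receptors Csf3r and Cxcr2 and hold large amounts of the calcium-binding proteins S100a8 and S100a9. The lung's own matrix is made mainly by fibroblasts and epithelium, with type IV collagen and laminins in the basement membrane, and type VI collagen, fibrillin and elastin in the tissue between.

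Counts assigned to genes ranged from 4567220 to 8318711 per lung, with a median of 5578104.5, and 16029 genes had enough counts to be tested. The labels of genotype were matched by *Clic4* itself. Its counts scaled to library size, as CPM, were between 210 and 287 in the 10 KO lungs, where part of the gene remains, and between 603 and 882 in the 10 WT lungs. The tissue was matched by its defining markers, with per-length levels of *Sftpc*, the surfactant protein of alveolar type 2 cells, between 6852 and 9935 FPKM. The casein gene *Csn3*, at 9.45 to 23.2 FPKM in the primary tumors, was between 0 and 0.22 FPKM in the lungs at 14 days and at 0 in all controls. Of 12 mammary tumor cell markers, 6 could be tested and none passed the test, with summed levels of 190 to 329 CPM at 14 days and 220 to 265 CPM in controls. The highest sum was in a WT lung at 14 days. Tumor-free lungs held transcripts of this list too, so the test cannot tell whether a few tumor cells were present. A pair of lungs stood apart from the rest, replicate 2 of the KO lungs at 14 days and replicate 5 of the WT lungs at 14 days, in which 33 interferon effector genes summed to 4537 and 4394 CPM. A fit without the pair was added after seeing the data, and it raised the number of calls. Where leaving out the pair changed a call on a gene named here, the value without it is given.

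In the lungs of tumor-bearing mice, a small group of genes changed, among them neutrophil genes that rose and matrix genes that fell. By edgeR's quasi-likelihood test with genotype in the fit, 38 of 16029 genes passed a false discovery rate (FDR) of 0.05, which is 0.237% of the genes tested. Of these, 20 rose (0.125%) and 18 fell (0.112%). The 20 that rose had log2 fold changes from 0.19 to 3.67 with a median of 1.02, and the 18 that fell had log2 fold changes from -0.18 to -0.94 with a median of -0.38. The median over all genes was 0.00. At the looser limits that the study set for lungs, an FDR of 0.25 and a 1.5-fold change, 67 genes were higher (0.418%) and 20 were lower (0.125%). Only 5 of the 18 genes that fell passed both sets of limits, since 13 changed by less than 1.5-fold. At an unadjusted p under 0.05, 959 genes were higher (5.98%) and 903 were lower (5.63%).

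Few genes separated all lungs of one kind from all lungs of the other. All 12 lungs at 14 days were above all 8 controls for 2 genes (0.0125%) and below all of them for another 2 (0.0125%). Among the 38 called genes these were *Sav1*, a scaffold protein of the Hippo pathway, above, and *Lamb1* and *Adamts12* below.

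The number of calls at an FDR of 0.05 depended on single lungs. It was 71 without KO 14-day replicate 2 and 78 without WT 14-day replicate 5. It was 8, 16 and 10 without KO 14-day replicates 1, 3 and 4, and 8 without WT 14-day replicate 3 and without replicate 6. Among controls it was 3, 18, 14 and 6 without KO replicates 1 to 4, and 5, 14, 4 and 12 without WT replicates 1 to 4. All 38 genes kept their direction and an FDR under 0.25 in each of the 20 fits that left out 1 lung, with a largest FDR of 0.125. The number at the looser limits stayed between 68 and 109 in those fits. Without both of the lungs that stood apart, 113 genes passed an FDR of 0.05 (51 higher and 62 lower), among them 37 of the 38.

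**Figure D1:**
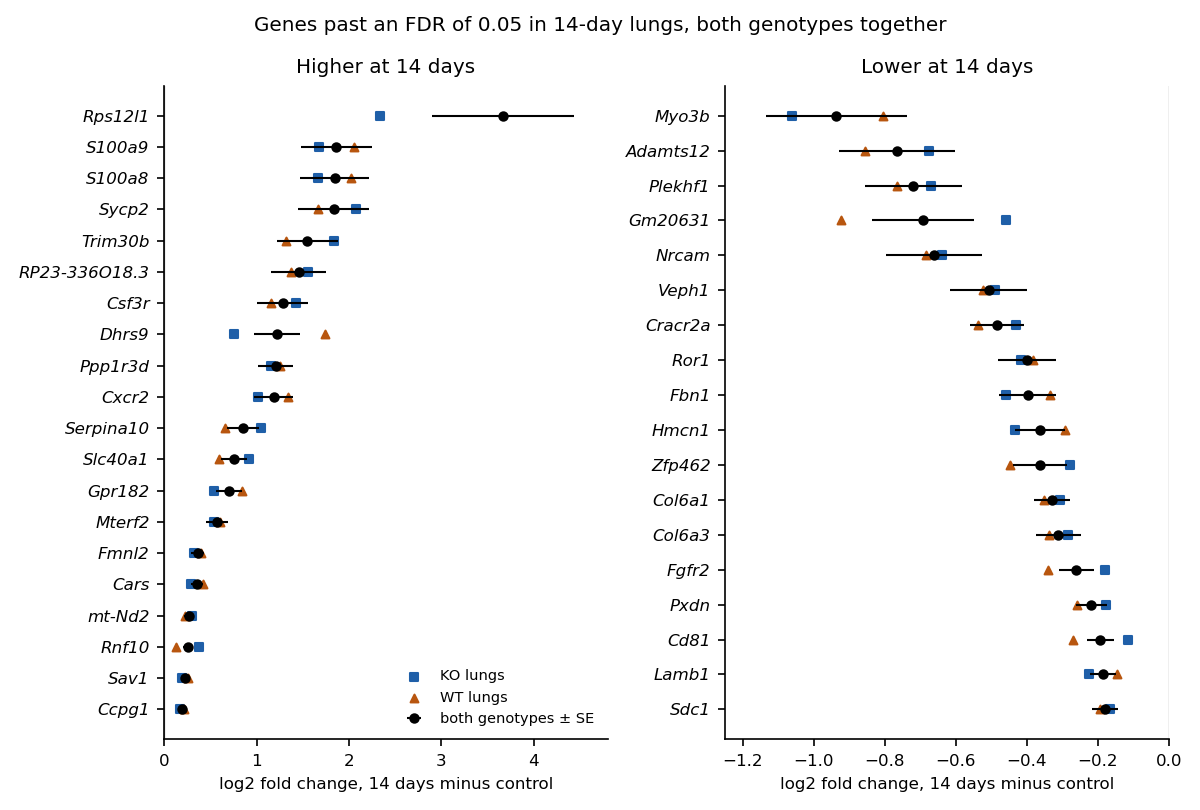
Log2 fold changes (14 days minus control) of the 20 genes that rose and the 18 that fell at an FDR of 0.05. Black points with bars give the fit over all 20 lungs ± SE, blue squares the 10 KO lungs and brown triangles the 10 WT lungs, which lie on the same side of 0 for each gene drawn; no WT value is drawn for *Rps12l1*, since all 4 WT controls were at 0.

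Neutrophil genes rose in the lungs of tumor-bearing mice. Of 18 listed genes of mature neutrophils, 16 were tested and 4 rose at an FDR of 0.05, against 0.125% of all genes. Another 9 were higher at the looser limits, which made 13 of 16 against 0.418% of all genes. The median log2 fold change of the list was 1.29. The list has been used on these data before, so its count is no independent evidence of its direction. In tissue as a whole, more cells of a type and more RNA per cell cannot be told apart.

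*S100a9* and *S100a8*, which encode the subunits of calprotectin, the most abundant protein of the neutrophil's cytoplasm, had the largest folds of the 4 that rose. *S100a9* was at 8.42 CPM in the lowest, 56.7 in the median and 146 in the highest lung at 14 days, against 11.3, 17.7 and 29.1 CPM in controls. *S100a8* was at 5.80, 25.7 and 65.8 CPM at 14 days and at 5.09, 8.05 and 14.7 CPM in controls. For both genes 10 of 12 lungs at 14 days were above every control. The lowest lung at 14 days, KO replicate 2, lay among the controls for *S100a8* and below all of them for *S100a9*. The log2 fold change was 1.86 ± 0.38 (SE) for *S100a9* (edgeR, FDR = 0.0423) and 1.84 ± 0.38 for *S100a8* (edgeR, FDR = 0.0423). Per length, the median at 14 days was 181 FPKM for *S100a9* and 89.9 FPKM for *S100a8*, and the primary tumors had medians of 13.5 and 6.93 FPKM.

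Both receptors that govern release of neutrophils from marrow and their entry into tissue rose. *Cxcr2*, the receptor for neutrophil-attracting chemokines, was at 9.36, 20.8 and 31.5 CPM in the lowest, median and highest lung at 14 days, against 6.72, 9.50 and 15.2 CPM in controls. *Csf3r*, the receptor for granulocyte colony-stimulating factor, was at 10.5, 54.6 and 86.0 CPM against 12.9, 18.5 and 31.3 CPM. In each case 10 of 12 lungs exceeded every control, and the lowest lung at 14 days was again KO replicate 2. The log2 fold change was 1.18 ± 0.21 for *Cxcr2* (edgeR, FDR = 0.0255) and 1.28 ± 0.27 for *Csf3r* (edgeR, FDR = 0.0448).

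Sequences before the start of *S100a8*, *S100a9* and *Cxcr2* are shown. These genes rose together, and start regions are where myeloid factors of the C/EBP and PU.1 families commonly bind. The letters are RefSeq promoter sequences (GRCm38.p6), 5′ to 3′ on the gene's strand, and only bases before the first start in GENCODE are given. For *Csf3r* those 141 bases held no match and are not shown. Capitals mark matches to TTGCNNAA, a core of C/EBP sites, or to GAGGAA, a core of PU.1 sites, on either strand. *S100a8* lies on the plus strand and *S100a9* on the minus strand of chromosome 3, with 22596 bases between them.
S100a8, plus strand, chr3:90668821-90668977: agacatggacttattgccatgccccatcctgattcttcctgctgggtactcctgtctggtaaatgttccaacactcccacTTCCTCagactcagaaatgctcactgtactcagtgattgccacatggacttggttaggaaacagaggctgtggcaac
S100a9, minus strand, chr3:90695722-90695971: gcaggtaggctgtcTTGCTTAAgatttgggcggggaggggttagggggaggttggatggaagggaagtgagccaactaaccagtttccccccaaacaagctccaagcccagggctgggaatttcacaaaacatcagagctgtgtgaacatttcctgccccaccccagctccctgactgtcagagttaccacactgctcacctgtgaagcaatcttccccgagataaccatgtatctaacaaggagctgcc
Cxcr2, plus strand, chr1:74153744-74153988: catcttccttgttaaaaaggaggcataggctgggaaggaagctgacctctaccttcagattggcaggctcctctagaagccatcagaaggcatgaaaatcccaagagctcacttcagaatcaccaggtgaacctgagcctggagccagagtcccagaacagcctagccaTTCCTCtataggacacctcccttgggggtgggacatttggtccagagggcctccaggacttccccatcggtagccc

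In the whole 250 bases before the RefSeq start, *S100a8* had 2 matches to the PU.1 core, *Cxcr2* and *Csf3r* had 1 each, and *S100a9* had 1 match to the C/EBP core. Of 32851 mouse promoter windows of that length, 23.3% held the PU.1 core and 9.56% the C/EBP core. For the neutrophil list, 7 of 17 windows held the PU.1 core and 4 of 17 the C/EBP core. A match describes letters and not binding.

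Of the other 12 members tested, 9 passed the looser limits without reaching an FDR of 0.05, each of them higher. The collagenase gene *Mmp8* had a log2 fold change of 1.53 ± 0.35 (edgeR, FDR = 0.0655), the cytokine gene *Il1b* 1.12 ± 0.26 (FDR = 0.0704), and *Il1r2*, the decoy receptor for interleukin-1, 1.97 ± 0.47 (FDR = 0.0782). The lectin gene *Clec4d* had 1.39 ± 0.34 (FDR = 0.0885) and its relative *Clec4e* 0.91 ± 0.28 (FDR = 0.168). *Mmp9*, the gelatinase often named among premetastatic niche factors, had 0.90 ± 0.31 (FDR = 0.222). The remaining members passed neither set of limits, with *Hdc*, the histamine-forming enzyme, at -0.31 ± 0.12 (FDR = 0.268), the chemokine-binding receptor gene *Ccrl2* at -0.05 ± 0.08 (FDR = 0.849) and *Trem1*, an activating receptor of myeloid cells, at 0.36 ± 0.17 (FDR = 0.428). *Ly6g*, whose product is the usual surface marker of mouse neutrophils, was too low to test, with at most 0.692 CPM in any lung.

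The rise was uneven among the lungs. Of the 13 neutrophil genes past the looser limits, KO 14-day replicate 2 had the lowest value of the 12 lungs at 14 days for 12 genes and exceeded every control for 1. Replicates 3 and 6 of the WT lungs at 14 days exceeded every control for all 13, and replicates 1 and 6 of the KO lungs for 12. The summed level of the listed genes ranged from 228 to 626 CPM at 14 days and from 175 to 272 CPM in controls, so the groups overlapped. Without the pair of lungs with high interferon genes, one of which was the lowest in neutrophil genes, 9 of 16 members passed an FDR of 0.05, against 0.32% of all genes higher in that fit. They were the 4 above with *Mmp8* (1.68, FDR = 0.0251), *Il1b* (1.21, FDR = 0.0114), *Il1r2* (2.06, FDR = 0.0354), *Clec4d* (1.48, FDR = 0.0354) and *Retnlg* (1.43, FDR = 0.0354). Leaving out the lowest lung at 14 days favours such calls, so the gain is no further evidence of the rise. *Slfn4*, a listed gene also induced by interferon, reached 217 CPM in 1 lung. Its log2 fold change was 2.32 ± 0.69 (edgeR, FDR = 0.162) and 1.21 without that pair (FDR = 0.253). When single lungs were left out, between 0 and 9 members passed an FDR of 0.05 and between 10 and 13 the looser limits.

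**Figure D2:**
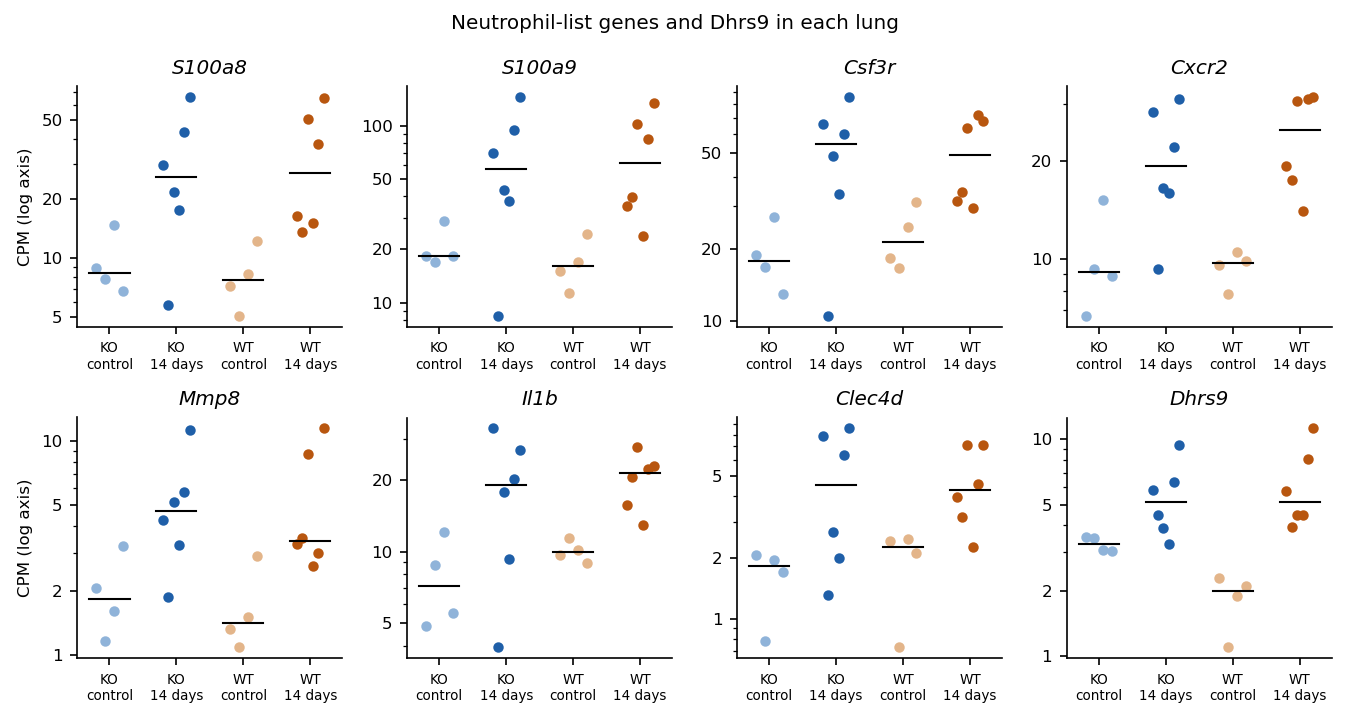
CPM (log axis) in each lung for 7 genes of the neutrophil list and *Dhrs9*, by genotype and time. Each point is 1 lung and the line is the group median; medians at 14 days lie above those of controls in both genotypes, and the lowest KO point at 14 days in the neutrophil panels is replicate 2.

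Other blood cell lists held few genes past the limits. Of genes stored in the granules of immature neutrophils, 4 of 12 could be tested and none passed an FDR of 0.05. *Ngp* had a log2 fold change of 1.72 ± 0.50 (edgeR, FDR = 0.152) and was the 1 of 4 past the looser limits, against 0.418% of all genes higher. *Lcn2* had -0.47 ± 0.15 (FDR = 0.186). For platelets and megakaryocytes, 9 of 10 tested genes had a fold change above 0 with a median of 0.43. None of these passed an FDR of 0.05, and 7 had an unadjusted p under 0.05 against 5.98% of all genes. The chemokine gene *Ppbp* was the 1 of 10 past the looser limits, at 0.70 ± 0.19 (edgeR, FDR = 0.138), against 0.418% of all genes higher. Without the pair of lungs with high interferon genes, the platelet genes *Itga2b* (0.60, FDR = 0.0987) and *Gp9* (0.67, FDR = 0.130) passed the looser limits too. That made 3 of 9 tested, where 74 of 15958 genes were higher in that fit.

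Lists of monocytes, interstitial macrophages, dendritic cells, B cells, T cells, NK cells, erythroid cells, and mast cells and basophils held no gene past either set of limits. Their medians ranged from -0.18 for B cells to 0.19 for erythroid cells. The medians of B, T, NK and erythroid cells pool values of opposite sign in KO and WT lungs, given with the genotypes. Among chemokines and their receptors 31 were tested, of which *Cxcr2* rose, against 0.125% of all genes. At the looser limits 2 were higher, against 0.418% of all genes, the other being *Ccr1*, a receptor of myeloid cells, at 0.85 ± 0.21 (edgeR, FDR = 0.0967). *Ccr1* passed an FDR of 0.05 without the pair of lungs with high interferon genes (FDR = 0.0370). The list's median was 0.00. Of 14 alveolar macrophage genes none passed an FDR of 0.05. *Marco*, a scavenger receptor of these cells, was at 2.81, 4.86 and 12.4 CPM in the lowest, median and highest lung at 14 days and at 7.21, 9.97 and 12.8 CPM in controls, with 10 of 12 lungs below every control. Its log2 fold change was -0.90 ± 0.20 (edgeR, FDR = 0.0568), the 1 of 14 past the looser limits, against 0.125% of all genes lower. Without that pair it was -0.98 (FDR = 0.0103), where 0.389% of all genes were lower at an FDR of 0.05. The list's median was -0.07.

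A few matrix genes fell in the lungs of tumor-bearing mice, and most listed collagens had small fold changes below 0. No gene on the matrix lists passed the looser limits. Among 22 network, basement membrane and other non-fibrillar collagens, 2 fell at an FDR of 0.05 against 0.112% of all genes, 21 had a fold change below 0, and the median was -0.14. A further 7 had an unadjusted p under 0.05 in the same direction, which made 9 against 5.63% of all genes. Among 22 elastic fibre and other matrix proteins 1 fell, against 0.112% of all genes, with 4 lower at an unadjusted p under 0.05, against 5.63%, and a median of -0.07. Among 23 fibrillar collagens and collagen-processing enzymes none passed an FDR of 0.05, and 8 had an unadjusted p under 0.05, each lower, against 5.63% of all genes, with a median of -0.12. These medians stayed below 0 under each alternative.

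Type VI collagen, a beaded filament that links basement membrane to the tissue around it, is assembled from chains of several genes. *Col6a1*, on chromosome 10 from 76708792 to 76726168, was at 231, 258 and 301 CPM in the lowest, median and highest lung at 14 days, against 285, 329 and 369 CPM in controls. *Col6a3* was at 291, 377 and 434 CPM against 389, 473 and 527 CPM. For *Col6a1* 10 lungs at 14 days were below every control and for *Col6a3* 7, so the groups overlapped at their edges. The log2 fold change was -0.33 ± 0.05 for *Col6a1* (edgeR, FDR = 0.00941) and -0.31 ± 0.06 for *Col6a3* (edgeR, FDR = 0.0423). *Col6a2*, the third chain, had -0.32 ± 0.08 (edgeR, FDR = 0.108), which was under 0.05 without the pair of lungs with high interferon genes (FDR = 0.0384). Without that pair 5 non-fibrillar collagens passed an FDR of 0.05, against 0.389% of all genes lower in that fit, the other two being the basement membrane chains *Col4a6* (-0.29, FDR = 0.0447) and *Col4a5* (-0.27, FDR = 0.0398). Per length, the median at 14 days against controls was 66.1 and 84.9 FPKM for *Col6a1*, 35.5 and 46.1 for *Col6a2*, and 60.0 and 70.3 for *Col6a3*.

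*Fbn1*, which encodes the fibrillin of elastic microfibrils, was at 178, 227 and 294 CPM at 14 days and at 257, 295 and 371 CPM in controls. Its log2 fold change was -0.40 ± 0.08 (edgeR, FDR = 0.0423), and 8 of 12 lungs were below every control. *Eln*, the elastin gene, had -0.41 ± 0.12 (edgeR, FDR = 0.168), and *Tnc*, the tenascin gene, -0.53 ± 0.17 (FDR = 0.183). Neither passed either set of limits. Fibronectin (*Fn1*) and periostin (*Postn*), matrix proteins often named in premetastatic lungs, had log2 fold changes of -0.02 ± 0.08 and -0.03 ± 0.04. *Col1a1* and *Col3a1*, the main fibrillar collagens, had -0.24 ± 0.17 and -0.39 ± 0.14 without passing the test.

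Further genes that fell encode proteins of the basement membrane or the cell surface, grouped here after their values were seen. *Lamb1*, the laminin beta chain of basement membranes, was at 127, 140 and 150 CPM in the lowest, median and highest lung at 14 days and at 152, 157 and 173 CPM in controls. The groups did not overlap, and the log2 fold change was -0.18 ± 0.04 (edgeR, FDR = 0.0423). *Hmcn1*, a giant matrix protein called hemicentin, had -0.36 ± 0.07 (FDR = 0.0397), and *Pxdn*, the enzyme that cross-links type IV collagen, -0.22 ± 0.04 (FDR = 0.0423). *Adamts12*, a secreted matrix protease, was at 2.08, 5.73 and 7.75 CPM at 14 days and at 7.78, 9.10 and 10.5 CPM in controls, again without overlap. Its log2 fold change of -0.77 ± 0.16 (edgeR, FDR = 0.0448) was among the larger falls. The proteoglycan gene *Sdc1* had -0.18 ± 0.04 (FDR = 0.0423).

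*Gm20631* fell as well, at -0.69 ± 0.14 (FDR = 0.0423). It is an antisense transcript that lies wholly inside *Hmcn1* on chromosome 1, from 150625266 to 150783499. The libraries kept strand, but whether the counting used it is not given in the sources used here, so reads of the pair may be shared.

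**Figure D3:**
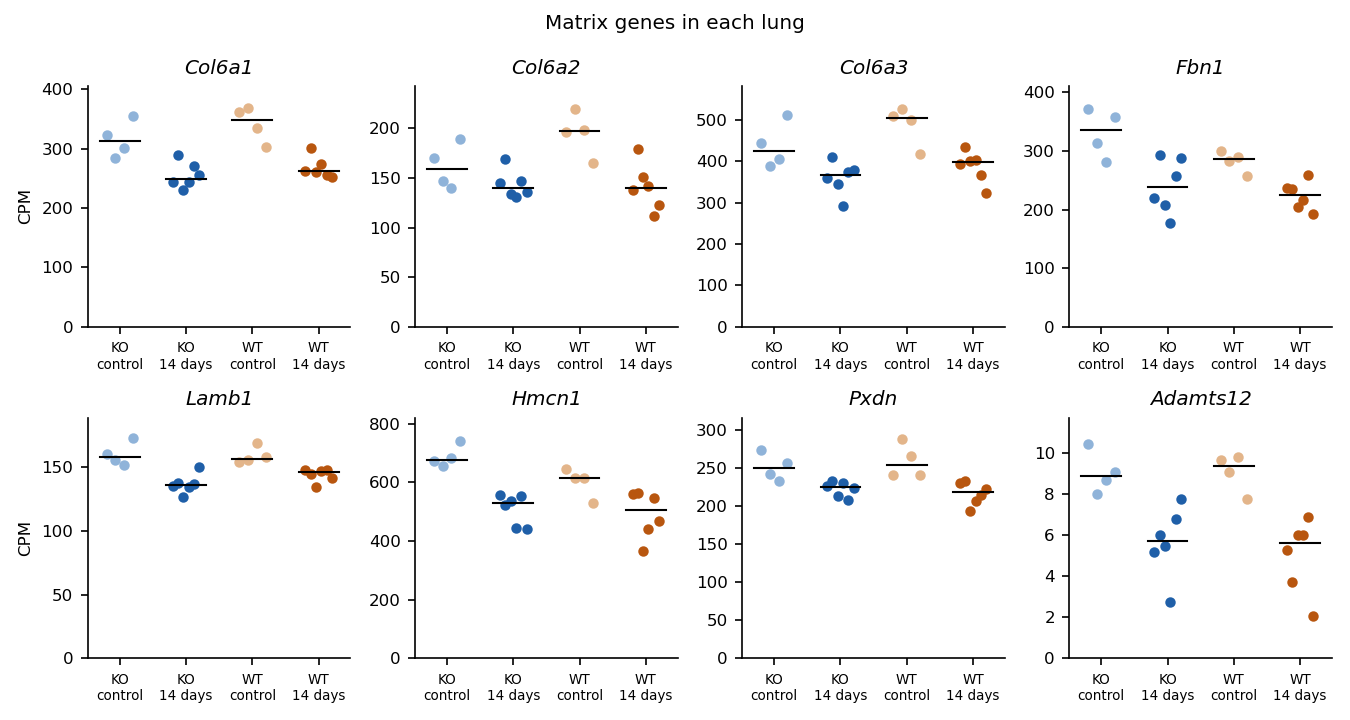
CPM in each lung for 8 matrix genes, with axes that start at 0. Each point is 1 lung and the line is the group median; medians at 14 days are below those of controls in both genotypes for all 8, and the points of *Lamb1* and *Adamts12* at 14 days lie below all control points. *Col6a2* did not pass the test.

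The rest of the genes that fell included surface receptors, adhesion genes and others of varied function, again grouped after their values were seen. *Fgfr2*, a growth factor receptor of alveolar epithelium, was at 148, 176 and 205 CPM at 14 days and at 198, 214 and 227 CPM in controls, with a log2 fold change of -0.26 ± 0.05 (edgeR, FDR = 0.0353). *Ror1*, a Wnt receptor, had -0.40 ± 0.08 (FDR = 0.0423), *Nrcam*, a neuronal adhesion protein, -0.66 ± 0.14 (FDR = 0.0423), and the tetraspanin gene *Cd81* -0.19 ± 0.04 (FDR = 0.0423). *Cracr2a*, a regulator of store-operated calcium entry, was at 8.35, 10.4 and 12.8 CPM at 14 days and at 12.2, 14.7 and 15.6 CPM in controls. Its log2 fold change was -0.49 ± 0.08 (edgeR, FDR = 0.00941). *Plekhf1*, an endosomal protein, had -0.72 ± 0.14 (FDR = 0.0353), the zinc finger gene *Zfp462* -0.36 ± 0.08 (FDR = 0.0423), *Veph1* -0.51 ± 0.11 (FDR = 0.0448), and the myosin gene *Myo3b*, the largest fall, -0.94 ± 0.20 (FDR = 0.0448).

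Among genes that rose outside the neutrophil list, *Ppp1r3d*, a subunit that directs protein phosphatase 1 to glycogen, had the smallest p. It was at 2.63, 4.74 and 7.44 CPM in the lowest, median and highest lung at 14 days and at 1.57, 2.19 and 3.31 CPM in controls. The log2 fold change was 1.21 ± 0.19 (edgeR, FDR = 0.00941), and 11 of 12 lungs were above every control. Its relative *Ppp1r3b*, another such subunit, had 0.59 ± 0.13 (edgeR, FDR = 0.0516). *Sycp2*, a meiotic chromosome protein, rose by 1.83 ± 0.39 (FDR = 0.0448) from a control median of 0.438 CPM to 2.23 CPM. *Sycp2* lies 3520 bases from *Ppp1r3d* on the same strand of chromosome 2, downstream of it, and how far their reads are shared was not tested.

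*Ppp1r3d*, *Col6a1* and *Cracr2a* were the 3 of the 38 genes that passed an FDR of 0.05 in all 20 fits that left out 1 lung. Of the 38, 12 passed in at least 10 of these fits. *Cxcr2* passed in 16, *S100a8* and *S100a9* in 6 and *Csf3r* in 5. *Col6a3*, *Fbn1* and *Lamb1* passed in 7, and *Adamts12* and *Sdc1* in 4.

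*Slc40a1*, which encodes ferroportin, the protein that lets iron leave cells, was at 8.72, 13.4 and 20.9 CPM at 14 days and at 6.13, 7.68 and 11.0 CPM in controls. Its log2 fold change was 0.76 ± 0.14 (edgeR, FDR = 0.0353), and it was the 1 gene of 15 tested for iron and heme handling that passed, against 0.125% of all genes. *Dhrs9*, a retinol dehydrogenase, had 1.22 ± 0.25 (FDR = 0.0423), with 11 of 12 lungs above every control. *Gpr182*, a chemokine-scavenging receptor of endothelium, had 0.70 ± 0.14 (FDR = 0.0423). *Serpina10*, an inhibitor of coagulation proteases, had 0.85 ± 0.17 (FDR = 0.0423) and was the only one of 20 acute phase and interleukin-6 family genes to pass, against 0.125% of all genes, while the list's median was 0.05.

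Smaller rises were seen for *Cars* (0.35 ± 0.06, FDR = 0.0255), which charges cysteine to its tRNA, for the formin gene *Fmnl2* (0.36 ± 0.07, FDR = 0.0382) and for *Rnf10* (0.26 ± 0.05, FDR = 0.0470). *Sav1* was at 66.2, 72.8 and 76.8 CPM at 14 days and at 55.7, 62.6 and 65.5 CPM in controls, with a log2 fold change of 0.23 ± 0.04 (edgeR, FDR = 0.0255). *Ccpg1*, a receptor for the turnover of endoplasmic reticulum, had 0.19 ± 0.03 (FDR = 0.0255). *Trim30b*, of a family of near copies, had 1.55 ± 0.33 (FDR = 0.0448), and the transcript RP23-336O18.3, which awaits experimental proof, had 1.46 ± 0.30 (FDR = 0.0423).

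*Rps12l1*, a processed pseudogene on chromosome 7, had the largest fitted change, 3.67 ± 0.77 (edgeR, FDR = 0.0439). It was at 0 in 7 of 8 controls and in 1 of 12 lungs at 14 days, where the median was 10.1 CPM. Without KO control replicate 2, the 1 control above 0, the fitted value was 8.95. The fitted size depends on how zeros are treated and is no bound, and reads of such a copy are hard to part from those of its parent gene.

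*mt-Nd2*, a subunit of respiratory complex I encoded in mitochondria, rose by 0.26 ± 0.05 (edgeR, FDR = 0.0311), from a control median of 324 CPM to 397 CPM. Of 13 mitochondrial genes it was the 1 that passed, against 0.125% of all genes. An unadjusted p under 0.05 was found for 7, each higher, against 5.98% of all genes, and the median was 0.14. With GC offsets *mt-Nd2* had an FDR of 0.0966. In that fit 2 of 13 genes had an unadjusted p under 0.05, against 1974 of all 16029 genes in either direction. *Mterf2*, a nuclear gene for mitochondrial transcription, rose by 0.57 ± 0.12 (FDR = 0.0448). *Mterf2* lies next to *Cry1* on the same strand of chromosome 10, and how far their reads are shared was not tested. *Mterf2* had an FDR of 0.0537 without the pair of lungs with high interferon genes.

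Lists for resident cells held no gene past either set of limits in all 20 lungs, and the vessel list held *Slc6a2*, a noradrenaline transporter, without the pair of lungs with high interferon genes (0.60, FDR = 0.0398). Of 12 genes of alveolar type 2 cells, which make surfactant, all had a fold change below 0 and 7 an unadjusted p under 0.05, against 5.63% of all genes, with a median of -0.15. *Napsa*, a protease that processes surfactant protein, had -0.21 ± 0.05 (edgeR, FDR = 0.101) and *Cxcl15*, a lung chemokine, -0.47 ± 0.14 (FDR = 0.143). Alveolar type 1, club and ciliated cells, fibroblasts, pericytes with smooth muscle, mesothelium, capillaries and larger vessels had medians from -0.09 to 0.11. Summed levels of fibroblast genes were 3436 to 4036 CPM at 14 days and 3785 to 4028 CPM in controls. Their part in the lower matrix genes was not tested. Neighbouring tissue was measured through cardiac muscle, adipocyte and thymus lists, which had medians of 0.01, 0.05 and -0.04.

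No gene of cholesterol synthesis passed either set of limits in all 20 lungs. Of 24 tested, 21 had a fold change below 0 and 12 an unadjusted p under 0.05, each lower, against 5.63% of all genes, with a median of -0.17. *Hsd17b7* had -0.46 ± 0.10 (edgeR, FDR = 0.0568) and *Idi1*, which isomerizes the isoprene unit, -0.34 ± 0.09 (FDR = 0.0967). Without the pair of lungs with high interferon genes 5 members passed an FDR of 0.05, against 0.389% of all genes lower in that fit. They were *Hsd17b7* (-0.47, FDR = 0.0384), *Idi1* (-0.39, FDR = 0.0269), *Fdps* (-0.33, FDR = 0.0475), *Hmgcs1* (-0.28, FDR = 0.0149) and *Cyp51* (-0.42, FDR = 0.0475). Fatty acid synthesis had a median of -0.08 and no call.

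All 16 glucocorticoid-responsive genes had a fold change below 0, with a median of -0.39, none passed either set of limits and 5 had an unadjusted p under 0.05, against 5.63% of all genes. *Tsc22d3*, a glucocorticoid-induced repressor of inflammation, was at 189, 380 and 489 CPM at 14 days and at 385, 478 and 609 CPM in controls (log2 fold change -0.39 ± 0.12, edgeR, FDR = 0.177). Of 20 clock genes 1 passed the looser limits, against 0.418% of all genes higher. It was *Cry1*, a repressor of the clock, at 0.63 ± 0.14 (edgeR, FDR = 0.0568), with 8 of 12 lungs above every control. *Cry1* had an FDR of 0.0306 without the pair of lungs with high interferon genes, where 0.32% of all genes were higher at 0.05. The clock list's median was 0.16. The hour at which mice were killed is not given in the sources used here.

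Of 17 phase 1 xenobiotic enzymes 16 had a fold change above 0 and 6 an unadjusted p under 0.05, against 5.98% of all genes, with a median of 0.12 and no call. Apart from *S100a8*, *S100a9* and *Mmp9*, no gene of 21 tested premetastatic niche factors passed either set of limits, where 0.418% of all genes were higher at the looser limits, and the list's median was -0.02. Antigen presentation through MHC class I and class II, NF-kappaB targets, cell cycle, hypoxia, TGF-beta and heat shock lists had medians from -0.07 to 0.07 and no call at either set of limits, and the nuclear-retained and 7S RNAs had -0.05. Without the pair of lungs with high interferon genes, the gelatinase gene *Mmp2* of the niche list (-0.26, FDR = 0.0269) and the NF-kappaB target *Ier3* (0.47, FDR = 0.0354) passed an FDR of 0.05.

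**Figure D4:**
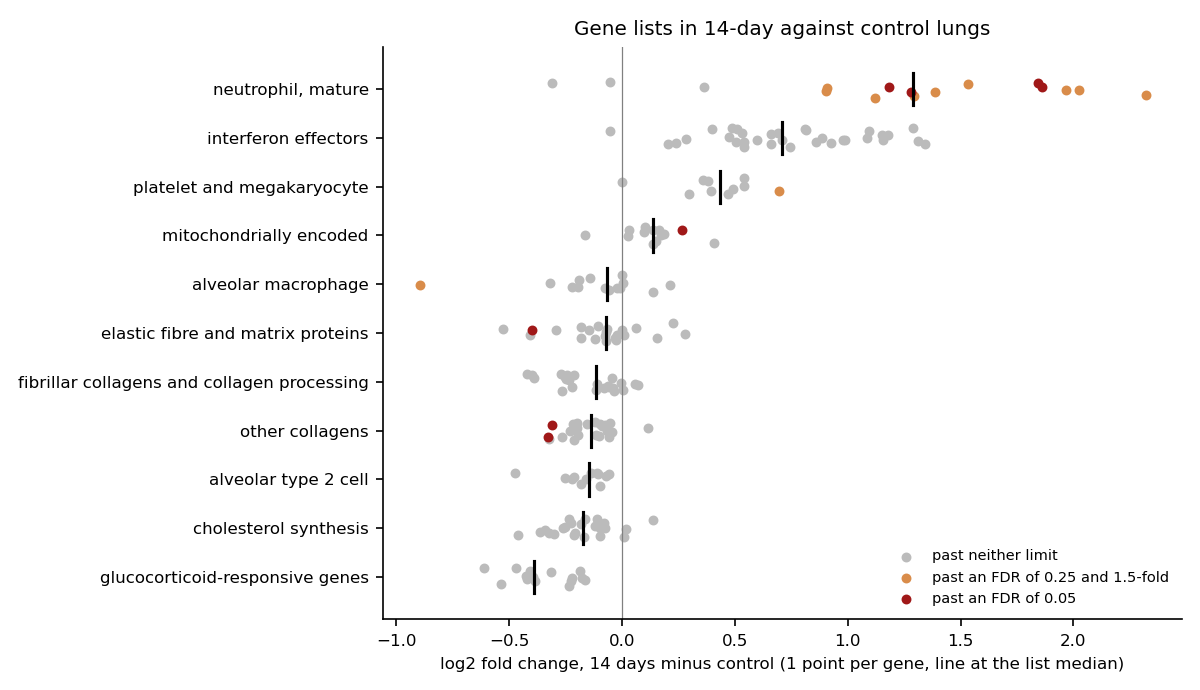
Log2 fold changes (14 days minus control) of the tested members of 11 gene lists, 1 point per gene with a line at the list median. Dark red points passed an FDR of 0.05 and orange points an FDR of 0.25 with a 1.5-fold change; most points past either limit are in the neutrophil list.

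Interferon effector genes were much higher in a pair of lungs at 14 days than in the other lungs. Of 33 tested entries, 32 had a fold change above 0, with a median of 0.71, none passed either set of limits and 10 had an unadjusted p under 0.05, against 5.98% of all genes. KO replicate 2 and WT replicate 5 held the highest or second highest value of all 20 lungs for 32 and 31 of them. The other lungs at 14 days summed to between 861 and 1479 CPM and the controls to between 696 and 1948 CPM, the highest of these being WT control replicate 4. Over all listed entries, the median sum was 1155 CPM at 14 days and 981 CPM in controls. Without the pair the median log2 fold change was -0.03, with 15 entries above 0 and 18 below. The pair was picked for these same genes, so a lower median without it was built in, and the high WT control stayed in that fit. Whether the other lungs at 14 days responded was therefore not tested. *Isg15*, a ubiquitin-like protein and a typical member, had a log2 fold change of 1.34 ± 0.67 (edgeR, FDR = 0.450) in all lungs and -0.12 without the pair. *Irf1*, a transcription factor of this response, had 0.20 ± 0.07 (FDR = 0.223).

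**Figure D5:**
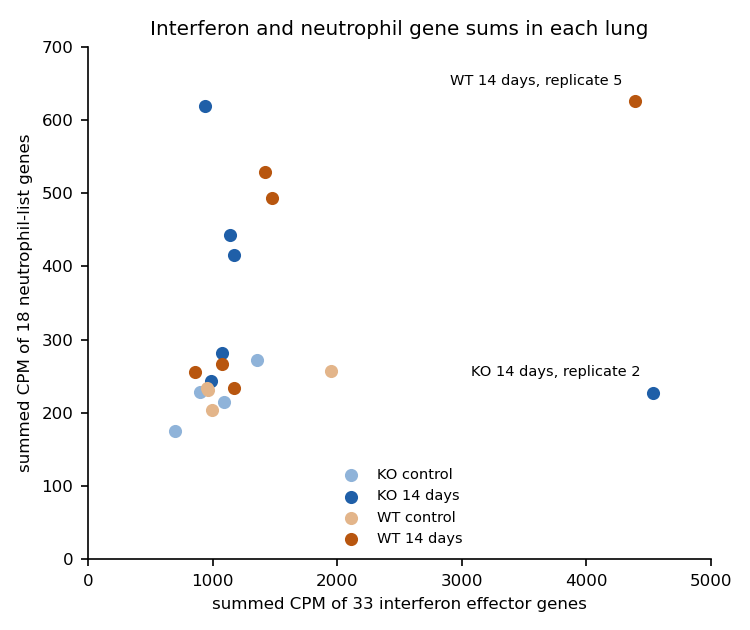
Summed CPM of 33 interferon effector entries (x axis) against summed CPM of 18 neutrophil-list genes (y axis) in each of 20 lungs, coloured by group. KO replicate 2 and WT replicate 5 at 14 days lie far to the right at 4537 and 4394 CPM, with neutrophil sums of 228 and 626 CPM, while the other 18 lungs lie below 2000 CPM.

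The response was also read within each genotype, from the same 20 lungs. All 38 called genes had the same sign in KO and WT lungs, as had all 87 genes at the looser limits. Genes picked for the effect over both genotypes will mostly share a sign, so this count says little by itself. In the fit with 1 mean per group, 6 genes passed an FDR of 0.05 in KO lungs and none in WT lungs. In fits of KO lungs alone or WT lungs alone edgeR called none, with 1338 and 1790 genes at an unadjusted p under 0.05. The neutrophil list had a median log2 fold change of 1.317 in KO lungs and 1.305 in WT lungs, and the non-fibrillar collagens -0.12 and -0.15. Fitted alone, KO lungs had no neutrophil gene of 14 tested past the looser limits, where 0.169% of all genes were higher, and WT lungs had 10 of 15, where 0.315% were. That difference in calls was not tested. The platelet list had a median of 0.75 in KO and 0.30 in WT lungs. Fitted alone, 7 of 8 platelet genes had an unadjusted p under 0.05 in KO lungs and 1 of 8 in WT lungs, each higher. Over all genes, in either direction, these were 1338 of 15370 and 1790 of 15579. The platelet difference was not tested.

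Of 47 gene lists, 19 had medians of opposite sign in the genotypes, which a pooled median near 0 does not show. The B cell list had a median of 0.38 in KO and -0.61 in WT lungs, none of its 12 genes had the same sign in both, and 5 had an unadjusted interaction p under 0.05, against 8.53% of all genes, none past the FDR. In WT lungs fitted alone 4 B cell genes were lower at the looser limits, against 0.27% of all genes. The erythroid list had medians of 0.45 and -0.08, the MHC class II list 0.28 and -0.17, and the adipocyte list -0.29 and 0.51. For cell cycle genes the medians were 0.10 and -0.26, for NF-kappaB targets 0.06 and -0.21, for T cells 0.16 and -0.29 and for heat shock proteins -0.09 and 0.15. For NK cells they were 0.03 and -0.30, and for granule genes of immature neutrophils -0.25 and 0.37. These differences between list medians were not tested.

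The difference between the genotypes was tested as an interaction. It passed an FDR of 0.05 for 1 gene of 16029 (0.00624%), with 1367 at an unadjusted p under 0.05 (8.53%), and not for any of the 38 called genes. Of those 38, 4 had an unadjusted interaction p under 0.05, namely *Dhrs9*, *Cd81*, *Rnf10* and *Rps12l1*. For *Dhrs9* the log2 fold change was 0.75 for KO and 1.74 for WT hosts (interaction FDR = 0.578). For *Cd81* it was -0.11 and -0.27 (interaction FDR = 0.535).

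The 1 gene past the limit was *Nfix*, a transcription factor of the nuclear factor I family on chromosome 8. It ranged from 58.2 to 70.2 CPM in KO lungs at 14 days, above the KO controls at 47.2, 49.7, 35.8 and 44.2 CPM. In WT lungs it ranged from 43.0 to 54.5 CPM at 14 days, mostly below the WT controls at 52.3, 66.2, 70.2 and 60.1 CPM. The log2 fold change was 0.53 in KO and -0.32 in WT lungs, a difference of 0.86 ± 0.13 (edgeR, interaction FDR = 0.0240). The interaction calls numbered 0 with GC offsets, in 10 of the 20 fits that left out 1 lung and without the pair of lungs with high interferon genes, and 16 with DESeq2. The next smallest p-values were those of the pseudogene *Rpl15-ps3* and of *Mgat4b*, a glycosyltransferase gene, and neither passed.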

How the data were processed

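RNA from single lung lobes of the 20 mice was sequenced as stranded, paired-end mRNA libraries. According to the submitters' processing notes and the study's methods, the reads were aligned with STAR to GRCm38 (mm10) and assigned to genes with RSEM. The release of the annotation and the strand setting are not given in the sources used here. The authors deposited expected counts per gene, rounded to whole numbers and not normalized, and separately FPKM values, which were used here only for levels per length.

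All 20 lungs and 29511 genes entered 1 fit in edgeR 4.0.16 (R 4.3.3), with TMM normalization, filterByExpr over the 4 groups and terms for genotype and tumor. Quasi-likelihood tests were adjusted by Benjamini-Hochberg over 16029 genes. Standard errors were the log2 fold change divided by the square root of F. The interaction came from a fit with 1 mean per group. CPM used the normalized library sizes. Promoter letters came from RefSeq, and coordinates from GENCODE M21, in which 29244 genes were found.

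Named were *Clic4*, up to 12 called genes of known symbol in each direction with the smallest p, called members of gene lists (the top 2 of a list with none), the top 3 interactions and the extreme folds. Other genes are named after their values were seen. The members and lists were chosen with earlier results of these data known. Alternatives were DESeq2 1.42.0, RLE size factors, other count filters, a replicate block, offsets for GC content, leaving out the 7S RNAs, other models and limits, each genotype alone and each lung left out. A fit without the pair of lungs with high interferon genes was added after seeing the data. Replicate lungs all differed beyond counting noise, with chi-squared per degree of freedom between 2.55 and 10.2 over 42 pairs. Lungs are taken to be single mice, as in the study's methods. On simulated data 95% of 100 genes changed by a log2 of 1 were recovered, with 3% of calls false. Recovery of smaller changes was not tested. The called genes that fell all changed by less than a log2 of 1, from -0.18 to -0.94 with a median of -0.38.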

Additional observations from a re-analysis of the deposited data

Results flagged for a closer look

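In 160 groups of lungs tested for a single stray value, 10 stray values were found, where chance gives about 1 in 20 groups, or 8. Most concern called genes of small fold or low level. *Cars* was at 28.1 CPM in KO 14-day replicate 2, apart from 22.1 to 24.0 CPM in the others of that group, and at 23.3 CPM in KO control replicate 4, apart from 17.7 to 18.6 CPM. *Ccpg1* was at 126 CPM in WT 14-day replicate 6, where the others had 114 to 118 CPM. *S100a9* was at 29.1 CPM in KO control replicate 3, above 17.0 to 18.5 CPM in the other KO controls. *Trim30b* was at 0.758 CPM in KO control replicate 4, below 1.75 to 1.94 CPM. *Rps12l1* was at 0 in KO 14-day replicate 3, where the others had 8.57 to 12.96 CPM, and at 7.21 CPM in KO control replicate 2, the only control above 0.

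The summed interferon effector genes gave a stray lung in 3 of the 4 groups. The sum was 4537 CPM in KO 14-day replicate 2, apart from 937 to 1175 CPM in that group. It was 4394 CPM in WT 14-day replicate 5, apart from 861 to 1479 CPM, and 1948 CPM in WT control replicate 4, apart from 953 to 993 CPM. The stray lungs include 1 from a tumor-free mouse.

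*Nfix* differed between the genotypes by a tested interaction of 0.86 on the log2 scale, with a rise in KO lungs and lower values in WT lungs at 14 days.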

How the results depend on the processing

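Against 38 called genes by edgeR, DESeq2 gave 134, limits of an FDR of 0.05 with 1.5-fold gave 18, limits of an FDR of 0.25 with 1.5-fold gave 87, and leaving out the pair of lungs with high interferon genes gave 113. KO lungs alone and WT lungs alone gave 0 each. Leaving out single lungs gave 3 to 78. All 38 genes passed in DESeq2 and 35 with GC offsets, which lost *mt-Nd2*, *Lamb1* and *Sdc1*. At the looser limits the count of 87 became 35 with at least 10 counts in every lung and 32 in KO lungs alone, and leaving out single lungs gave 68 to 109. Of the calls 52.6% were higher at an FDR of 0.05 and 77% at the looser limits. The 1 interaction call became 16 with DESeq2, 0 with GC offsets and 0 without the pair of lungs, and leaving out single lungs gave 0 to 2. No called gene named here changed sign under these alternatives, and the share of called genes with the same sign in both genotypes was 100% in edgeR at both sets of limits and in DESeq2. The median of the interferon effector list did change sign, from 0.71 to -0.03 without the pair of lungs, which was picked for these same genes. The share of calls that were higher was 43.3% with at least 10 counts in every lung and 45.1% without the pair, and 33.3% to 80% without single lungs. The causes were not tested.

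With the replicate block the calls numbered 84 at an FDR of 0.05, of which 42.9% were higher, and 137 at the looser limits, with 0 interaction calls. With GC offsets and the replicate block together they numbered 150, 155 and 0. Of the 38 genes, 23 passed under the block. The numbers do not pair the lungs: over 26 pairs of lungs with the same number, the correlation of deviations ranged from -0.219 to 0.254, and 5 were above 0.1. The list medians moved as well, to 0.93 for neutrophil genes, 0.38 for interferon effectors and -0.50 for glucocorticoid-responsive genes, of which 2 then passed an FDR of 0.05, against 0.299% of all genes lower in that fit.

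Depth limits low genes: *Ly6g* had 18 counts over all lungs and could not be tested.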
